A study of Mus musculus with 3 samples.

Results

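The 30 genes described here are a fixed list of 15 S phase genes and 15 genes of the G2 and M phases of the cell cycle. They were found by symbol among the 32285 features of 3 single-cell libraries from mouse brainstem, and all 30 had UMIs (unique molecular identifiers, each counting 1 captured transcript) in every library. The S phase genes were Mcm2, Mcm3, Mcm4, Mcm5, Mcm6, Mcm7, Pcna, Rrm1, Rrm2, Tyms, Gins2, Cdc6, Ung, Uhrf1 and Chaf1b. The G2/M genes were Mki67, Top2a, Cdk1, Ccnb1, Ccnb2, Ccna2, Birc5, Ube2c, Cenpf, Cenpe, Aurka, Aurkb, Tpx2, Plk1 and Bub1. DIPG4423, a murine diffuse midline glioma line, had been grafted as 100000 cells into brains of B6(Cg)-Tyrc-2J/J mice aged 6 weeks, whose immune system is intact, and untreated animals were sampled 3 weeks later. These gave the libraries tumour 1 and tumour 2, and another library came from ungrafted, untreated brainstem (normal), whose age is not given in the sources used here. All 3 tissues were perfused with saline, depleted of myelin with magnetic beads and treated to lyse red cells before 10x Genomics 3' sequencing. Every tumour came from the same line, so the pair says nothing of other gliomas.

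Dividing cells copy their DNA in S phase and separate the copies in M phase. The Mcm proteins form the replicative helicase ring, which Cdc6 helps to load and Gins2 helps to activate. Pcna is the clamp that holds the DNA polymerase on its template, Rrm1 and Rrm2 make deoxyribonucleotides, Tyms makes thymidylate, Ung removes uracil from DNA, Uhrf1 maintains DNA methylation and Chaf1b places histones on new DNA. In G2 and M phase Cdk1 acts with the cyclins Ccna2, Ccnb1 and Ccnb2, Plk1 and the Aurora kinases drive spindle assembly, Tpx2 activates Aurka, Birc5 works with Aurkb, Cenpe and Cenpf act at kinetochores, Bub1 serves the spindle checkpoint and Ube2c helps to degrade cyclins. Top2a untangles DNA and Mki67 coats mitotic chromosomes and is the usual marker of proliferating cells. In adult brainstem most cells do not divide, whereas marrow cells and gliomas do.

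E2F factors act mainly on S phase genes, through short GC-rich sites. The CHR element TTTGAA and the CCAAT box act together at many G2/M genes. These words were searched on both strands in the 250 bases before the annotated start (RefSeq, GRCm38.p6), as TTTGGCGC, TTTCCCGC, TTTGCCGC and TTTCGCGC for E2F, TTTGAA for CHR and CCAAT. A window was available for 13 S phase members and 12 G2/M members, and Mcm4, Gins2, Ccna2, Aurkb and Tpx2 had none. An E2F word stood in 5 of the 13 S phase windows (38.5%; Cdc6, Mcm5, Mcm6, Mcm7 and Uhrf1) and in 1 of the 12 G2/M windows (8.33%; Cdk1), against 2.16% of 27025 genes. A CHR word stood in 1 S phase window (7.69%; Mcm2) and in 5 G2/M windows (41.7%; Ccnb2, Cdk1, Mki67, Top2a and Ube2c), against 18.3% of all genes. CCAAT stood in 9 S phase windows (69.2%), in 11 G2/M windows (91.7%) and in 37.5% of all genes. CHR and CCAAT stood together in 7.69%, 41.7% and 7.34%. The windows below show where these words lie in the members with the most UMIs among those holding one, 3 of each set, with Mcm6 added after the matches were counted as the window with 3 E2F words. Each runs 5′ to 3′ towards the gene, and capitals mark the words, with the first 2 E2F words of Mcm6 overlapping. Matches are letters in a window and were not tested as binding sites.
Pcna (chr2:132253181-132253430, minus strand): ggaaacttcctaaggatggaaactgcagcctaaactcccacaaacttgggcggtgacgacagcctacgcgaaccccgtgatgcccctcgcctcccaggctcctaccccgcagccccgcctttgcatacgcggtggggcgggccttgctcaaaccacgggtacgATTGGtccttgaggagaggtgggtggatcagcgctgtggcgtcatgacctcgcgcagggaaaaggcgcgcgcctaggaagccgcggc
Rrm1 (chr7:102441445-102441694, plus strand): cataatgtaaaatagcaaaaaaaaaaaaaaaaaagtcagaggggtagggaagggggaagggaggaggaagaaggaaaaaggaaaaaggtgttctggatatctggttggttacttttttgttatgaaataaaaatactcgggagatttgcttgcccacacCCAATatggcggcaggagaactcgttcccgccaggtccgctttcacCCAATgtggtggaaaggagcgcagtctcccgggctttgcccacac
Mcm3 (chr1:20820313-20820562, minus strand): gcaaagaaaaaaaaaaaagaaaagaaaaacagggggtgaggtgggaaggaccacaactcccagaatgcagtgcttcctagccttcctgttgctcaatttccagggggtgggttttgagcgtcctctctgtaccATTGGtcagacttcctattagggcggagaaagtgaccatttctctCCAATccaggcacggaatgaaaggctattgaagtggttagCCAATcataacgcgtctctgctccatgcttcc
Mcm6 (chr1:128359706-128359955, minus strand): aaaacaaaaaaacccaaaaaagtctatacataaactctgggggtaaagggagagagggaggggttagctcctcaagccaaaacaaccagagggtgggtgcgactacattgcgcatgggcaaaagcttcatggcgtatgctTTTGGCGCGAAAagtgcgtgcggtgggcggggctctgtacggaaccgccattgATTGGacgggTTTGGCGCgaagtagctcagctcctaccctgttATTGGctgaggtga
Cenpf (chr1:189688087-189688336, minus strand): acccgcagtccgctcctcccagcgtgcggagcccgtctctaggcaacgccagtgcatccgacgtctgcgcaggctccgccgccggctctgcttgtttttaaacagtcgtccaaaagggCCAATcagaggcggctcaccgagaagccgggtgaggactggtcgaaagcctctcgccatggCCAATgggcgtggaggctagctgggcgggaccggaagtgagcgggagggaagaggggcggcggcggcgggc
Top2a (chr11:99024190-99024439, minus strand): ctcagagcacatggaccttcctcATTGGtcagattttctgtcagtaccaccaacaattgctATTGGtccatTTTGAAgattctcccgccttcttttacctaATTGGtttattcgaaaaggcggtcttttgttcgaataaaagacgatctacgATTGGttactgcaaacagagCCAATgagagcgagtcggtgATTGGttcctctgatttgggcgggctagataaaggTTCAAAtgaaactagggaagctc
Mki67 (chr7:135716380-135716629, minus strand): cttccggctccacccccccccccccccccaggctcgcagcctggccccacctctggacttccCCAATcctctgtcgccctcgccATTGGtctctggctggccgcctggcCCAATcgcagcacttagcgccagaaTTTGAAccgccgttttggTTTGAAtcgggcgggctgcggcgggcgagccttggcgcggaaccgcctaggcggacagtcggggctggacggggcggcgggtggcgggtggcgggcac

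Top2a and Mki67 each carried 2 CHR words, at 179 and 23 bases before the start of Top2a and at 116 and 98 before that of Mki67. In Mcm6 the E2F words began 110, 106 and 47 bases before the start. For Mcm6 and Mki67 the bases next to the window were not found in the transcript, so these distances hold only for the annotated start used. The Pcna window partly overlaps the listed span of its gene. Cenpf, Pcna, Rrm1 and Mcm3 held CCAAT boxes and no E2F or CHR word in this window.

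After filtering, 10550, 9407 and 3083 cells remained in tumour 1, tumour 2 and normal, with 8783.5, 11297 and 2395 median UMIs per cell. Clusters were named from marker genes, with 150 cell cycle genes, the 30 members among them, kept out of the variable genes. Cells with the 9 glial progenitor markers (Pdgfra, Olig1, Sox10 and others; all 9 present, 4715 and 4143 counts for every 1000000 UMIs, CPM) are called glioma cells here. They numbered 4367 and 2103 in the tumours and 1 in the normal library. The normal library stood apart from the tumours by its marrow-type cells (neutrophils, granulocyte precursors, B cells and erythroid cells), which made up 33.2% of its cells against 0.768% and 2.17%. Which tissue these cells came from is not in the labels. It is the only normal library, so no comparison with normal can be given without it. Comparisons within a class keep apart only the cells that bear a marrow-type name, and the naming moved with the clustering. Whether such cells also lay in other classes of the normal library was not tested. Each pair of libraries shared 13 to 37 barcodes, at most 0.367% of the smaller library.

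The members' transcripts lay in different cells in tumour-bearing and in normal brainstem. Glioma cells held 83.0% and 74.6% of all member UMIs in tumour 1 and tumour 2 (mean 78.8% ± 5.92, SD, n = 2), while they held 70.8% and 45.0% of all UMIs. In the normal library marrow-type cells held 92.3% of the member UMIs and 45.0% of all UMIs. Granulocyte precursors held 47.1% of the normal library's member UMIs, neutrophils 21.7%, B cells 14.4% and erythroid cells 9.13%, from 22 erythroid cells. Microglia, the resident macrophages of brain tissue, held 7.63%, 11.9% and 1.70% in tumour 1, tumour 2 and normal, while they held 11.5%, 21.2% and 11.9% of all UMIs. Macrophages held 5.81%, 6.18% and 0.474%, and vessel cells (endothelial and mural) held 0.488%, 3.20% and 0.866%. With finer clustering (Leiden resolution 2.0) the marrow-type share of the normal library's member UMIs fell from 92.3% to 45.2%, so this share depends on how clusters are drawn and named.

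**Figure D1:**
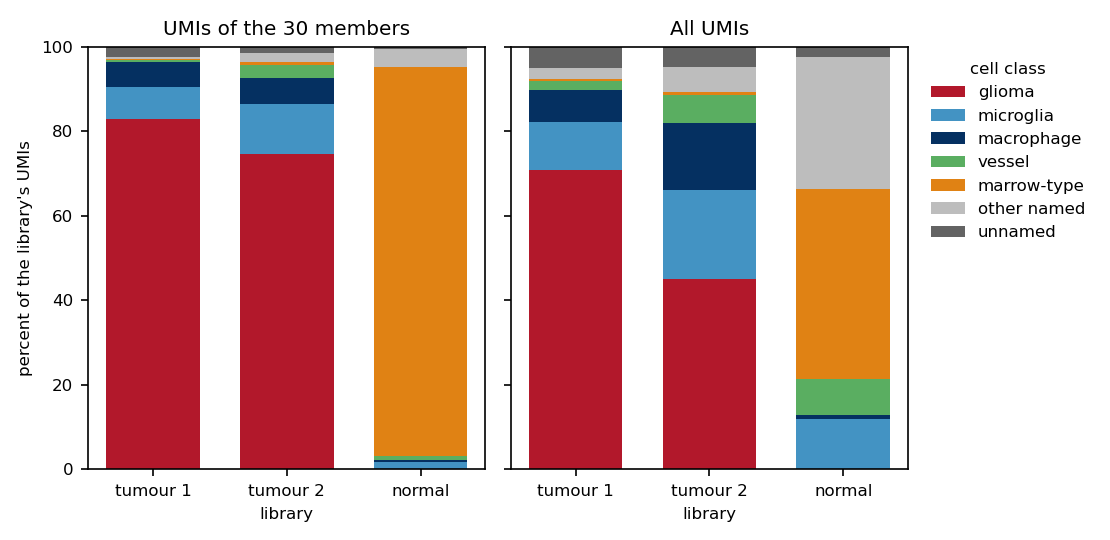
Percent of each library's S phase and G2/M member UMIs held by each cell class in tumour 1, tumour 2 and normal brainstem. Glioma cells hold 83.0% and 74.6% in the tumours, and marrow-type cells hold 92.3% in the normal library.

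Summed over whole libraries, the sets gave opposite orders between tumour and normal. The S phase members together stood at 427, 476 and 590 CPM across tumour 1, tumour 2 and normal, and the G2/M members at 1540, 1582 and 1278 CPM. The normal library was therefore the highest for the S set and the lowest for the G2/M set. In such sums, fewer cells of a type and less RNA per cell cannot be told apart. CPM here count UMIs and are not scaled by gene length, so the 2 sets' levels are compared only across cells and libraries.

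By class, glioma cells had the highest G2/M level among the tumours' classes of at least 100 cells, at 1881 CPM in tumour 1 and 2806 CPM in tumour 2 (mean 2343 ± 654, SD, n = 2). Their S phase level was 425 and 607 CPM (516 ± 129). Microglia stood at 833, 738 and 105 CPM for G2/M and at 470, 411 and 162 CPM for S in tumour 1, tumour 2 and normal. Both tumour values lay above the normal one in each set. Macrophages stood at 967, 449 and 896 CPM for G2/M and at 555, 361 and 244 CPM for S, so the normal value lay between the tumours for G2/M and below both for S. Endothelial cells stood at 219, 698 and 14.9 CPM for G2/M and at 259, 382 and 176 CPM for S. The pair of tumour libraries differed more there than in microglia, and both lay above normal. Marrow-type cells ran the other way, at 1347, 945 and 2693 CPM for G2/M and 664, 368 and 1137 CPM for S.

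Neurons, which do not divide, serve here as a background level. What their member UMIs come from, free or carried-over RNA or other signal, was not tested. Neurons stood at 128, 126 and 70.4 CPM for G2/M and at 124, 124 and 89.9 CPM for S in tumour 1, tumour 2 and normal. The glial progenitor markers were found in the neurons too (9, 9 and 6 of 9, at 372, 290 and 59.5 CPM in sum). Their G2/M members reached 0.344 and 0.434 UMIs per glial marker UMI in the tumours, beside 0.399 and 0.677 in the glioma cells themselves. Tumour microglia carried all 9 markers at 184 and 83.7 CPM, and the ratio was 4.53 and 8.82. Normal microglia carried 4 of 9 at 8.35 CPM and had a ratio of 12.6. The ratio was 8.34 and 9.12 in tumour macrophages, 0.510 and 1.83 in endothelial cells and 0.217 and 0.222 in astrocytes. The endothelial ratio of tumour 1 and the astrocyte ratios were thus near or below that of glioma cells, and the part of glioma RNA in them was not tested. Normal astrocytes carried 6 of 9 markers at 311 CPM too, so the astrocyte ratios do not count glioma RNA alone.

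**Figure D2:**
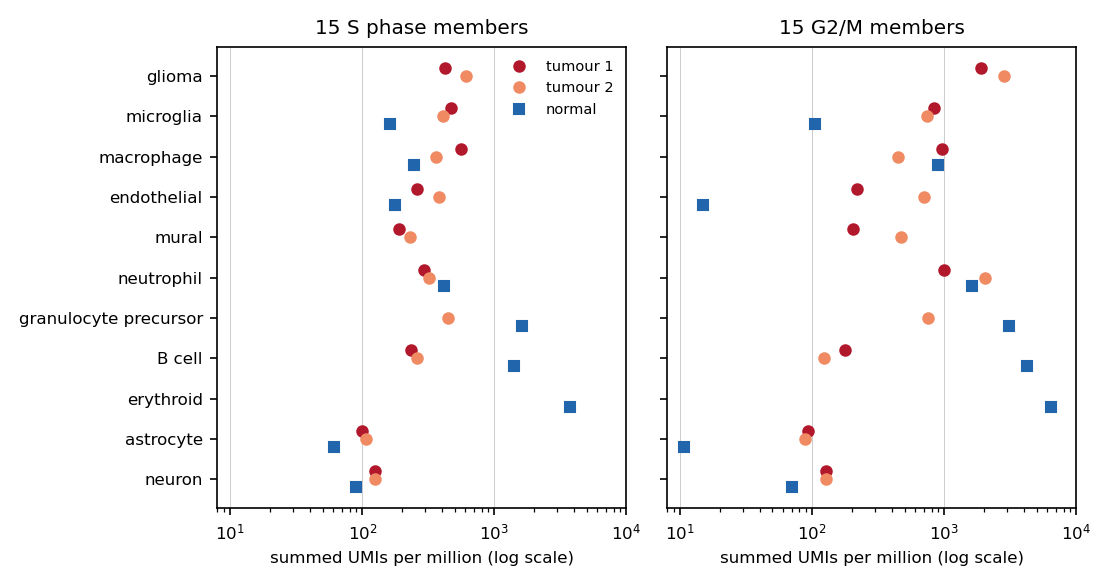
Summed level of the 15 S phase and of the 15 G2/M members in CPM (log axis) by cell class, with 1 point per library. Glioma cells reach 1881 and 2806 CPM for G2/M, tumour microglia 833 and 738, and normal microglia 105.

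The S share, the percent of member UMIs that belong to the S set, differed between some classes and overlapped in others. It is a share of transcripts of fixed gene lists, not of cells in a phase. In glioma cells it was 18.4% in tumour 1 (exact 95% interval 18.3 to 18.6%) and 17.8% in tumour 2 (17.6 to 17.9%). In microglia it was 36.1% (35.4 to 36.7%), 35.7% and 60.8% (55.5 to 65.9%) in tumour 1, tumour 2 and normal. The tumours' microglia were close to each other and lay between their glioma cells and the normal microglia. In macrophages it was 36.5%, 44.5% and 21.4% (13.8 to 30.9%), the last from 29 cells. Endothelial cells had 54.1%, 35.4% and 92.2% (87.2 to 95.7%), so that nearly all member UMIs of normal endothelium were S phase UMIs. Neurons had 49.3%, 49.5% and 56.1%, and marrow-type cells 33.0%, 28.0% and 29.7%. Among the marrow-type cells, neutrophils had 22.7%, 13.7% and 20.2%, so their tumour values lay on both sides of those of glioma cells. Intervals cover counting error only, and 2 libraries against 1 cannot give an exact permutation p below 0.333.

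**Figure D3:**
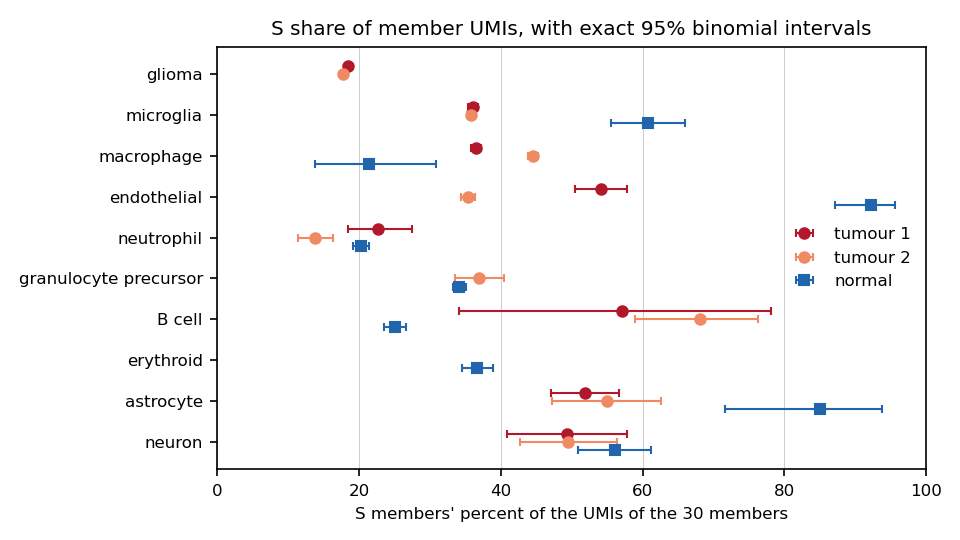
S phase UMIs as a percent of all member UMIs by cell class and library, with exact 95% binomial intervals for counting error. Glioma cells sit at 18.4% and 17.8%, tumour microglia at 36.1% and 35.7%, and normal endothelial cells at 92.2%.

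Cells with member transcripts were counted after thinning every cell to 1000 UMIs, since depth differed between classes and libraries. A G2/M UMI was found in 30.5% and 33.2% of glioma cells (medians of 15870 and 21762 UMIs before thinning; 77.0% and 81.0% unthinned). In microglia the shares were 17.1%, 13.9% and 4.0% in tumour 1, tumour 2 and normal (medians 4116, 8573 and 1884; unthinned 40.3%, 45.8% and 5.08%). In neurons they were 12.0%, 12.5% and 5.46% (medians 2766, 2481 and 3217; unthinned 32.2%, 27.3% and 14.2%). By this share normal microglia (4.0% against 5.46%) and tumour 2 microglia (13.9% against 12.5%) therefore lay close to the neuron background. Tumour 1 microglia lay above it. By CPM, normal microglia stood above normal neurons for G2/M (105 and 70.4). In macrophages the shares were 23.8%, 11.3% and 12.0%, so that tumour 2 lay at background. In endothelial cells they were 12.3%, 23.8% and 0.699%, with tumour 1 at background and tumour 2 above it. For the S set, glioma cells had 26.2% and 30.4% and neurons 13.9%, 14.1% and 7.53%, while microglia had 23.5%, 21.9% and 15.0%.

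A stricter count separated the classes further from neurons. At least 3 G2/M UMIs among 1000 were found in 15.3% and 18.7% of glioma cells, and these cells held 87.3% and 91.6% of the glioma G2/M UMIs. The same was true of 5.92%, 5.42% and 0.348% of microglia, of 8.80%, 3.35% and 4.0% of macrophages and of 1.75%, 5.70% and 0% of endothelial cells. Among neurons it was true of 0%, 0% and 0.377%. In glioma cells with at least 3 such UMIs, Mki67 was seen in 70.8% and 78.2%, Top2a in 67.2% and 75.9% and Cenpf in 70.2% and 74.4%. Pcna was seen in 13.4% of them in tumour 1 and 13.5% in tumour 2, Rrm1 in 14.4% and 18.3%, and Ung in 0.60% and 0.25%. Microglia with at least 3 such UMIs had Mki67 in 72.2% and 71.7%, Top2a in 56.3% and 64.2%, Pcna in 24.5% and 23.9% and Cenpf in 42.4% and 41.5%. S phase UMIs were also more frequent there than in cells with no G2/M UMI, at a mean of 0.824 against 0.254 and 1.02 against 0.315 per glioma cell and 1.28 against 0.239 and 1.48 against 0.221 per microglial cell. These cells were picked by their G2/M UMIs. The share of G2/M UMIs they held and the frequent G2/M members among them therefore follow in part from that choice. All of these are descriptions of cells of 2 libraries, with no test over cells.

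The glioma cells' G2/M transcripts gathered in 2 of their clusters. The clusters described here, also in microglia and macrophages, were picked because cell cycle genes led them. Their large G2/M shares follow in part from that choice. The members had been kept out of the variable genes, but some genes that follow them, such as Knl1, had not. Clusters 4 and 17 held 26.1% and 28.0% of the glioma cells of tumour 1 and tumour 2, but 74.3% and 82.7% of the G2/M UMIs. Of the S phase UMIs they held 49.0% and 56.2%, so the S set was spread more evenly. The remaining glioma cells stood at 658 and 737 CPM for G2/M and 296 and 403 CPM for S. Cluster 4 had 5077 and 7300 CPM for G2/M and 597 and 846 CPM for S. Cluster 17 had more S phase transcripts beside a like G2/M level, at 1084 and 1335 CPM for S. Microglia showed the same layout: cluster 10 held 5.42% and 4.49% of the tumour microglia, 63.2% and 61.1% of their G2/M UMIs and 38.0% and 32.9% of their S UMIs. Outside it, tumour microglia stood at 346 and 313 CPM for G2/M and 328 and 300 CPM for S, above neurons and above normal microglia. In macrophages cluster 11 held 7.50% and 2.40% of the cells and 55.5% and 46.3% of the G2/M UMIs.

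Glioma cells were compared with microglia of the same libraries by edgeR on UMI sums, with the library as a block. Of the G2/M members 14 of 15 were higher in glioma cells and 0 lower. Of the S phase members only Rrm1 was higher, and Mcm3, Pcna, Gins2 and Rrm2 were lower. Most genes differ between these cells (71.1% of 17054 genes tested passed, 37.0% higher and 34.1% lower). The median log2 difference was 1.15 for the G2/M members, 0.24 for the S phase members and 0.06 for all genes. Scaled by library size alone, which moves the all-gene median to 0.42 and the calls over all genes from 6303 higher and 5818 lower to 7643 and 4329, 15 G2/M and 6 S phase members were higher and the 4 lower S phase members no longer passed, with their sign kept. Nothing beyond the titles says how the animals relate, so the p-values reflect only how far these libraries spread.

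Cenpf, the kinetochore protein, stood at 387 and 594 CPM in glioma cells of tumour 1 and tumour 2 and at 86.9 and 77.1 CPM in their microglia. Both glioma values lay above both microglial ones (log2 difference 2.19, SE 0.19, adjusted p = 0.00013, edgeR). Ccnb1, the mitotic cyclin, stood at 71.0 and 117 CPM against 21.4 and 19.2 CPM (1.82, SE 0.20, adjusted p = 0.00032). Tpx2, the spindle assembly factor, stood at 124 and 175 CPM against 38.3 and 31.0 CPM (1.74, SE 0.19, adjusted p = 3e-04). Top2a stood at 360 and 501 CPM against 132 and 124 CPM (1.37, SE 0.16, adjusted p = 0.00047). For these 4 genes both glioma values lay above both microglial ones, in a comparison where 37.0% of all genes were called higher. They were named because they passed, so this order adds no further support. The other G2/M members that passed were Ube2c (1.36), Plk1 (1.29), Aurka (1.18), Cenpe (1.15), Cdk1 (0.86), Ccna2 (0.85), Birc5 (0.75), Ccnb2 (0.72), Bub1 (0.61) and Aurkb (0.39). Mki67 did not pass (298 and 459 CPM against 228 and 194 CPM; 0.46, SE 0.20, adjusted p = 0.075).

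On the S phase side Pcna stood at 77.9 and 99.4 CPM in glioma cells and at 118 and 100 CPM in microglia (log2 difference -0.66, SE 0.16, adjusted p = 0.0097, edgeR). Its CPM ranges nearly touched, and the difference includes the scaling between the classes. Mcm3 (-0.84, SE 0.18), Rrm2 (-0.66, SE 0.16) and Gins2 (-0.66, SE 0.19) were lower as well, and Rrm1 was higher (72.9 and 81.1 CPM against 48.5 and 36.4 CPM; 0.52, SE 0.15, adjusted p = 0.022). Mcm6 (0.01, adjusted p = 0.96) and Mcm7 (0.39, adjusted p = 0.073) did not pass. Against macrophages, glioma cells had 5 of 15 G2/M members higher (Cenpf 2.43, Ccnb1 1.73, Tpx2 1.50, Ube2c 1.32 and Top2a 1.27) and 0 lower, with 33.9% of 16626 genes higher and 62.8% called in all. The size differed between the libraries: without tumour 1 or without tumour 2 the difference was 3.20 or 1.66 for Cenpf, 2.66 or 0.80 for Ccnb1, 2.29 or 0.70 for Tpx2, 2.14 or 0.48 for Ube2c and 1.98 or 0.55 for Top2a, with no test. Pcna (-1.05), Mcm3 (-1.12) and Gins2 (-1.01) were lower than in macrophages and 0 S phase members higher, with 28.8% of all genes lower. Without tumour 1 or tumour 2 these differences were -0.71 or -1.40, -0.49 or -1.76 and -0.39 or -1.64, and the median of the S set was 0.37 or -0.84. Mki67 (0.58, adjusted p = 0.26) and Birc5 (0.45, adjusted p = 0.34) did not pass there, nor did Rrm1 (0.27, adjusted p = 0.35) and Mcm7 (-0.05, adjusted p = 0.88). The median difference was 1.03 for G2/M, -0.19 for S and 0.13 for all genes. Scaled by library size alone, it was 0.44 for S and 0.77 for all genes (8757 higher and 3140 lower, against 5640 and 4795), and 13 G2/M members and 1 S phase member were higher and the 3 lower ones no longer passed.

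**Figure D4:**
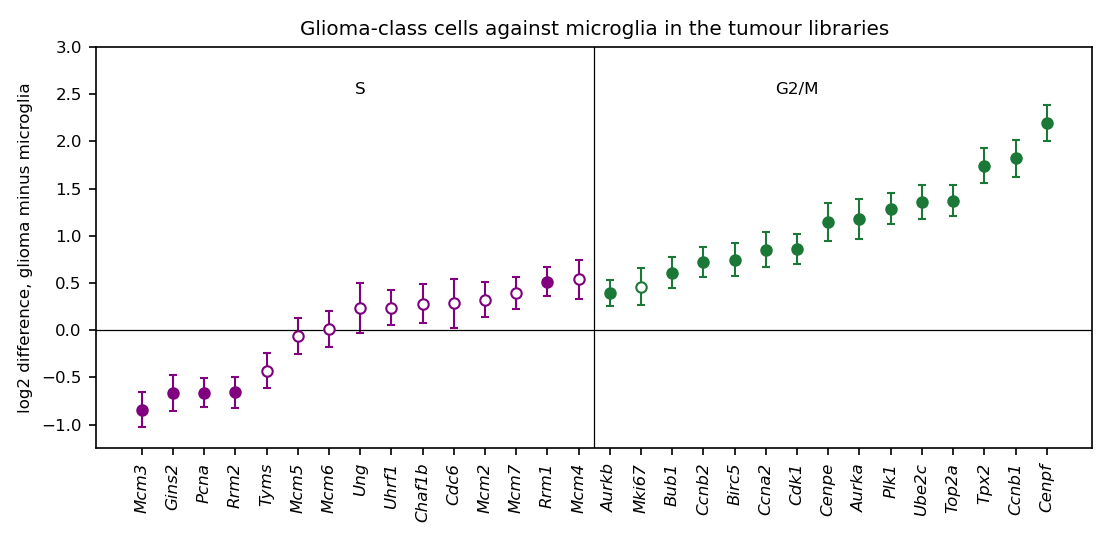
log2 difference of each member between glioma cells and microglia of the tumour libraries. Bars show 1 standard error derived from the edgeR F statistic, and filled points mark adjusted p below 0.05. The G2/M members lie between 0.39 and 2.19, and the S phase members between -0.84 and 0.54.

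Further cell cycle genes were counted in the comparison of glioma cells with microglia, where 37.0% of all genes were higher and 34.1% lower. Of 54 further G2 and M phase genes 42 were higher in glioma cells than in microglia and 2 lower, led by Ckap2 (2.23), Aspm (2.03) and Ect2 (2.02). Of 44 further S phase genes 11 were higher and 9 lower, with Dut (1.65) the highest and Gins1 (-1.61) and Pola2 (-1.54) the lowest. Among 22 regulators of G1 and S entry 6 were higher and 10 lower. Cdk6, a G1 kinase, stood at 2.88 and 3.34 CPM in glioma cells against 104 and 67.6 CPM in microglia (-5.11, SE 0.21, adjusted p = 1.2e-05). Its partner Ccnd2 ran the opposite way, at 550 and 579 CPM in glioma cells against 24.0 and 14.5 CPM (4.56, SE 0.22). Mycn, a transcription factor of the Myc family, was higher too (3.73). Against macrophages, 23 of the G2 and M phase genes were higher and 1 lower (Ckap2 2.30, Aspm 2.28 and Pbk 2.05), 3 of the S phase genes higher and 9 lower (Cdt1 -1.63, Gins1 -1.62 and Rfc3 1.33), and 6 regulators higher and 7 lower (Mycn 5.88, Cdk6 -4.13 and Ccnd2 2.87). Over all genes 33.9% were higher and 28.8% lower there.

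Macrophages and microglia of the tumours were compared in the same way. A group of 7 S phase members were higher in macrophages (Ung 0.79, Cdc6 0.82, Mcm4 0.59, Mcm5 0.58, Mcm7 0.49, Mcm6 0.46 and Pcna 0.44) and 0 lower, where 20.3% of 13992 genes were higher and 19.3% lower (39.6% in all). None of the 15 G2/M members passed by edgeR, with 0 at an unadjusted p under 0.05 and 0 by DESeq2. Mki67 gave -0.07 (adjusted p = 0.81) and Top2a 0.15 (adjusted p = 0.6), and the G2/M median was -0.39 without tumour 1 and 0.70 without tumour 2, while Mcm3 (0.32, adjusted p = 0.14) and Rrm1 (0.30, adjusted p = 0.14) of the S set did not pass. The 7 S phase calls were lost with DESeq2 and without the library block. Under library size alone, which moves the all-gene median from -0.04 to -0.37 and the calls from 2839 higher and 2700 lower to 1482 and 5480, 2 S phase and 2 G2/M members were lower in macrophages and 0 S phase members higher, with the sign of the 7 kept. Vessel cells were lower than microglia in Mcm3 (-1.32), Pcna (-0.86), Tyms (-0.75), Mcm7 (-0.80), Mcm5 (-1.30), Gins2 (-0.80) and Rrm2 (-1.50) and in Mki67 (-2.04), Top2a (-1.29), Aurkb (-1.09), Ccna2 (-0.96) and Birc5 (-1.10). The differences were smaller without tumour 1 and larger without tumour 2, at -1.45 or -2.76 for Mki67, -0.67 or -2.07 for Top2a, -0.71 or -1.81 for Aurkb, -0.40 or -2.04 for Ccna2, -0.26 or -2.35 for Birc5, -0.86 or -2.18 for Mcm5, -1.12 or -2.25 for Rrm2 and -0.33 or -1.35 for Tyms. No member was higher there, and 29.8% of 14518 genes were lower and 30.6% higher (60.4% in all). Cenpf (-0.63, adjusted p = 0.088), Cenpe (-0.79, adjusted p = 0.095), Mcm6 (0.25, adjusted p = 0.35) and Rrm1 (-0.54, adjusted p = 0.072) did not pass. Of the 44 further S phase genes 7 were higher and 0 lower in macrophages than in microglia (led by Dnmt1 1.20, Dut 0.96 and Gmnn 0.95), and of the 54 G2 and M phase genes 3 were higher and 2 lower (Espl1 -0.81, Pbk -0.67 and Smc4 0.61). In vessel cells 3 further S phase genes were higher and 22 lower than in microglia (Gins1 -2.18, Tk1 -1.56 and Orc1 -1.55), and 1 G2 and M phase gene was higher and 22 lower (Ccnf -1.90, Espl1 -1.88 and Pbk -1.62). Ccnd2 was higher than in microglia in both (1.75 and 3.55).

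Microglia of the tumours had higher levels of every member than microglia of the normal brainstem. All 15 S phase and all 15 G2/M members passed as higher (edgeR, adjusted over 14758 genes), where 12.2% of all genes were higher and 6.29% lower (18.5% in all). The median log2 change was 2.40 for the S set, 3.18 for the G2/M set and 0.08 for all genes. With the members at 0 in the normal library set to a floor of 3 counts, the median CPM ratio was 2.70 for S and 6.31 for G2/M. Scaled by library size alone (all-gene median -0.40; 1112 genes higher and 2861 lower, against 1800 and 928), 12 S phase and 15 G2/M members passed, and DESeq2 called 13 and 15. The spread in this fit is that of the tumour pair (1 residual degree of freedom), and it is taken to hold for the single normal library.

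Mki67 stood at 228 and 194 CPM in microglia of tumour 1 and tumour 2 and at 15.2 CPM in normal microglia (20 UMIs). Both tumour values lay far above the normal one, with a CPM ratio of 13.5 (counting interval 8.75 to 22.1) and a log2 change of 4.27 (SE 0.32, adjusted p = 0.00075, edgeR). Top2a stood at 132, 124 and 14.4 CPM (ratio 8.80, interval 5.63 to 14.6; 3.63, SE 0.30, adjusted p = 0.0013). Cenpf stood at 86.9, 77.1 and 13.7 CPM (3.06, SE 0.29, adjusted p = 0.0021) and Birc5 at 68.7, 49.9 and 6.83 CPM (3.58, SE 0.37, adjusted p = 0.0021). For these 4 genes both tumour values lay above the normal one, in a comparison where 12.2% of all genes were called higher. Each had been called higher, so this order adds no further support. Plk1, with 1 UMI in normal microglia, had a CPM ratio of 18.9 (counting interval 3.38 to 746). The remaining G2/M members had log2 changes between 2.35 (Ccnb2) and 4.66 (Bub1, on 1 normal UMI).

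Among the replication genes, Pcna stood at 118, 100 and 56.2 CPM (ratio 1.89, counting interval 1.50 to 2.41; log2 change 1.43, SE 0.24, adjusted p = 0.0062, edgeR). Mcm3 stood at 57.1, 60.7 and 28.1 CPM (1.56, SE 0.28, adjusted p = 0.0074), Rrm1 at 48.5, 36.4 and 18.2 CPM (1.69, SE 0.30) and Mcm7 at 30.5, 25.5 and 17.5 CPM (1.16, SE 0.31, adjusted p = 0.031). The lower tumour value of each lay above the normal one, in a comparison where 12.2% of all genes were called higher. All had been called higher, so this order adds no further support. Mcm2, with 16.5, 16.8 and 0.759 CPM from 1 normal UMI, had a ratio of 22.0 (3.93 to 869). Rrm2, Uhrf1, Chaf1b, Ung and Cdc6 had no UMI in normal microglia. They were at least 10.5-fold, 7.84-fold, 3.55-fold, 3.19-fold and 1.78-fold higher in the tumours, against the floor of 3 counts in the normal library. Tyms, Gins2, Mcm4 and Mcm6 had log2 changes of 1.40, 1.78, 1.94 and 2.40, and Mcm5, on 2 normal UMIs, had a ratio of 12.9 (3.56 to 107).

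**Figure D5:**
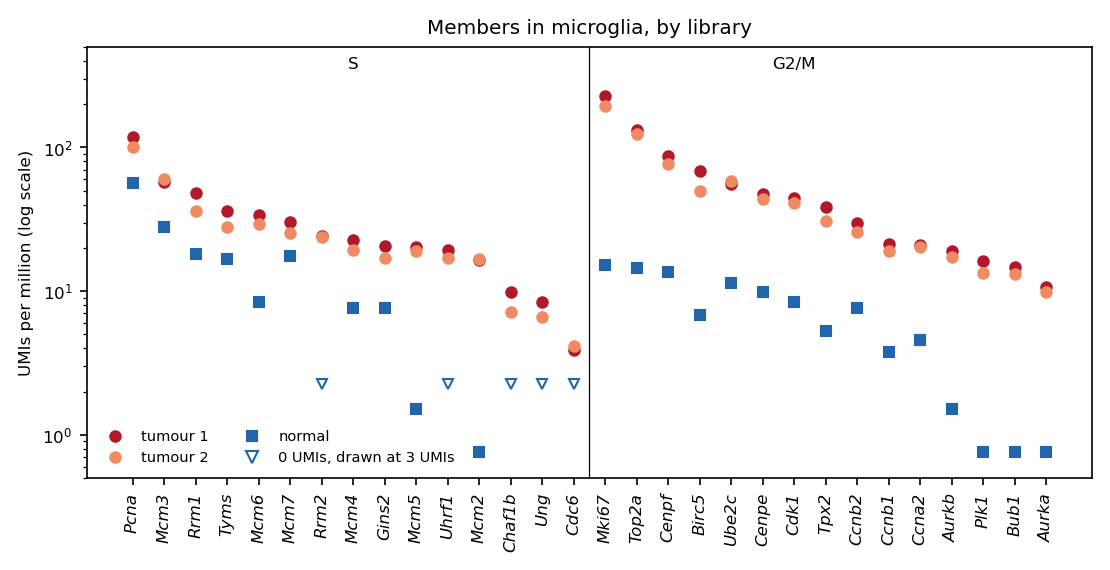
Level of each of the 30 members in microglia of tumour 1, tumour 2 and normal brainstem, in CPM. Mki67 lies at 228 and 194 CPM in the tumours and 15.2 CPM in normal, and Pcna at 118, 100 and 56.2 CPM.

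Different clusters held most of the microglia in the 2 groups. Cluster 8, led by homeostatic genes such as P2ry12, held 93.1% of the normal microglia but 2.43% and 27.4% of those in tumour 1 and tumour 2, whose microglia lay mostly in clusters 1 and 6. Within cluster 8 the G2/M level was 93.4, 136 and 26.3 CPM and the S level 227, 178 and 162 CPM across tumour 1, tumour 2 and normal (65, 813 and 678 cells). Normal was thus the lowest of the 3 there, by less than over all microglia, and the tumours changed places for G2/M. In cluster 6 the order was the opposite for G2/M, at 453, 335 and 1490 CPM (895, 1755 and 22 cells), while the S level was 372, 318 and 211 CPM. Cluster 7 stood at 824, 457 and 571 CPM for G2/M, the last from 9 UMIs in 6 cells. Of the 138 G2/M UMIs of normal microglia, 92 (66.7%) came from 22 cells in cluster 6, and without them the normal level was 36.6 CPM. Of the further genes, 24 of 44 S phase genes and 40 of 54 G2 and M phase genes were higher and 0 lower in tumour microglia, beside 12.2% of all genes higher and 6.29% lower. Chaf1a, Kif23 and Cdca2 had no normal UMI and were at least 5.82-fold, 7.95-fold and 5.13-fold higher. Among 21 regulators of G1 and S entry 8 were higher and 1 lower, including Ccne1 (at least 4.00-fold) and Ccnd2 at 24.0, 14.5 and 1.52 CPM.

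Macrophages gave no call between tumour and normal, where the normal library had 29 of these cells. No member passed by edgeR, with 3 S phase and 0 G2/M members at an unadjusted p under 0.05 and 0 by DESeq2, beside 2.07% of 12712 genes called (1.23% or 156 higher and 0.842% or 107 lower; by library size alone 21 and 165). The all-gene median was 0.72, and 0.19 by library size alone. Pcna stood at 136, 101 and 69.8 CPM across tumour 1, tumour 2 and normal (log2 change 1.28, SE 0.55, adjusted p = 0.28) and Mcm3 at 69.3, 50.1 and 23.3 CPM from 2 normal UMIs (1.87, SE 0.79, adjusted p = 0.28). Mki67 stood at 240, 106 and 140 CPM (0.82, SE 0.61, adjusted p = 0.57) and Top2a at 164, 78.7 and 58.2 CPM (1.57, SE 0.74, adjusted p = 0.33). The normal Mki67 value lay between the tumours. Of the further genes, 0 of 44 S phase, 0 of 54 G2 and M phase and 0 of 21 regulators passed by edgeR or by DESeq2, with 8, 4 and 2 at an unadjusted p under 0.05 by edgeR. These sums do not show that macrophages were alike. With finer clustering 2 S phase members were higher and 8 G2/M members lower in tumour macrophages, and with the stricter cell filter 2 G2/M members were higher.

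Endothelial cells, which line the vessels and rarely divide in adult brain, had 14 of 15 G2/M members higher in the tumours and 0 lower, beside 20.6% of 11375 genes higher and 14.1% lower (34.8% in all). Of 14 S phase members tested (Ung did not reach the count filter), 6 were higher and 0 lower. Mki67 reached 33.8 CPM in tumour 1 and 87.2 CPM in tumour 2 and had no UMI in normal endothelium. The pooled tumour value was at least 24.4-fold higher (adjusted p = 0.00026, edgeR). Top2a stood at 31.9, 98.2 and 2.13 CPM from 2 normal UMIs (ratio 40.7, counting interval 11.2 to 337; adjusted p = 0.00093). Tpx2, Ccnb2, Ccna2, Bub1, Aurkb and Aurka also had no normal UMI and were at least 10.7-fold, 7.92-fold, 5.42-fold, 4.20-fold, 3.76-fold and 2.88-fold higher. Tumour 2 held most of these UMIs, and tumour 1, from 72 cells, lay between it and normal for each of Mki67 and Top2a. The fitted log2 change of Top2a was 5.25, and 5.76 or 4.09 without tumour 1 or tumour 2. The endothelial cells of tumour 1 had a G2/M UMI as often as its neurons (12.3% and 12.0% of cells) and a G2/M level per glial marker UMI (0.510) near that of its glioma cells (0.399), and the part of glioma RNA in this library's values was not tested. Plk1 (3.83, SE 1.42, adjusted p = 0.052) did not pass.

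The remaining G2/M members that passed were Cenpf (34.4, 92.0 and 2.13 CPM), Ube2c (15.3, 92.3 and 2.13 CPM), Cdk1 (23.0, 59.3 and 2.13 CPM), Birc5, Ccnb1 and Cenpe. Of the S set Mcm6 stood at 43.4, 57.4 and 22.4 CPM (log2 change 1.46, SE 0.37, adjusted p = 0.0083, edgeR), Mcm3 at 26.1, 38.0 and 11.7 CPM (1.76, SE 0.45, adjusted p = 0.0094) and Tyms at 17.2, 28.1 and 5.34 CPM (2.41, SE 0.59, adjusted p = 0.0072). Both tumour values of each lay above the normal one, in a comparison where 20.6% of all genes were called higher. They were named because they passed, so this order adds no further support. Rrm2, Gins2 and Uhrf1 passed on 1, 2 and 3 normal UMIs, with ratios of 12.3 (2.16 to 489), 5.79 (1.57 to 48.4) and 5.04 (1.69 to 24.7). Pcna, the most abundant, stood at 64.4, 82.4 and 60.8 CPM (0.56, SE 0.29, adjusted p = 0.15) and Rrm1 at 30.0, 40.3 and 26.7 CPM (0.70, SE 0.37, adjusted p = 0.16). The median CPM ratio, with zeros at the floor, was 2.59 for S and 15.6 for G2/M, beside an all-gene median log2 change of 0.06. By library size alone that median was -0.21, with 1986 genes higher and 2541 lower against 2347 and 1608, and 7 S phase and 15 G2/M members were higher. DESeq2 called 0 S phase and 8 G2/M members.

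Clusters differed here too. Normal endothelium lay in cluster 18 (99.3%), while 80.6% and 69.0% of the tumours' cells lay in cluster 26, led by the sprouting genes Angpt2, Apln and Esm1. Within cluster 18 the G2/M level was 38.9 CPM in tumour 1 (8 UMIs in 14 cells), 154 CPM in tumour 2 (68 cells) and 15.0 CPM in normal, and in cluster 26 it was 247 and 803 CPM. With mural cells added, as vessel cells, 1 S phase member (Gins2) and 8 G2/M members (Mki67, Cenpf, Top2a, Tpx2, Bub1, Aurkb, Birc5 and Cdk1) were higher, beside 14.7% of 12687 genes (1863 higher and 1413 lower; by library size alone 1749 and 2027). These counts moved with the settings, to 6 and 14 with the stricter cell filter (where no cluster was named mural), 3 and 12 with doublets kept, 2 and 11 with finer clustering, 2 and 10 with cell cycle genes in the clustering or by library size alone, 7 and 15 with no low-count filter, and 0 and 8 by DESeq2. Of the further genes in endothelium, 11 of 35 S phase genes tested were higher and 0 lower, and 23 of 45 G2 and M phase genes were higher and 1 lower. Over all 11375 genes tested in endothelium 20.6% were higher and 14.1% lower. Cks1b, a Cdk subunit, was at least 16.7-fold higher, Anln at least 7.18-fold and Cdca3 at least 6.80-fold. Among the G1 and S entry regulators Myc was at least 4.77-fold higher.

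Marrow-type cells had the highest levels in the normal library. Its granulocyte precursors stood at 1609 CPM for S and 3105 CPM for G2/M (280 cells), against 444 and 758 CPM in the 56 precursors of tumour 2. Its erythroid cells stood at 3704 and 6401 CPM (22 cells). B cells of the normal library stood at 1412 CPM for S and 4236 CPM for G2/M, against 234 and 176 CPM in tumour 1 (20 cells) and 261 and 123 CPM in tumour 2 (97 cells). Both tumour values lay far below the normal one, and 29 of the 193 thinned B cells of the normal library held 95.8% of its thinned G2/M UMIs. Neutrophils stood at 992, 2021 and 1626 CPM for G2/M and 291, 321 and 413 CPM for S in tumour 1, tumour 2 and normal. Mature neutrophils do not divide, and the class was named from granule and secretory markers that immature forms share.

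In B cells all 15 G2/M members were lower in the tumours and 0 higher, beside 4.50% of 6159 genes lower and 3.73% higher (8.23% in all). Of 12 S phase members tested 5 were lower and 0 higher. The median fold, with zeros at the floor, was 3.64 lower for S and 21.7 lower for G2/M, beside an all-gene median log2 change of -0.02 (230 genes higher and 277 lower; by library size alone 214 and 399). Top2a reached 39.1 CPM in tumour 1 and 16.1 CPM in tumour 2 (7 UMIs in all) and stood at 1260 CPM in normal, a 65.0-fold lower level (counting interval 31.4 to 162; adjusted p = 2e-17, edgeR). Mki67 stood at 58.6, 9.68 and 810 CPM, a 48.7-fold lower level, and Ccna2, with no tumour UMI, was at least 27.2-fold lower. Without tumour 1 or tumour 2 the fitted log2 change was -6.08 or -4.97 for Top2a and -6.16 or -3.76 for Mki67. Pcna stood at 39.1, 38.7 and 317 CPM (log2 change -2.86, SE 0.61, adjusted p = 1e-04), Mcm7 at 19.5, 45.2 and 209 CPM (-2.21, SE 0.59, adjusted p = 0.004) and Rrm1 at 39.1, 25.8 and 141 CPM (-2.14, SE 0.62, adjusted p = 0.011). Rrm2 and Uhrf1, each with 1 tumour UMI, were lower by ratios of 46.7 (8.10 to 1870) and 61.1 (10.7 to 2439). Mcm6 (-1.75, adjusted p = 0.065) and Mcm3 (-1.45, adjusted p = 0.26) did not pass. The prior degrees of freedom were infinite in this fit, so its small p-values rest on a spread pooled over genes. DESeq2 called 2 of the 20 members called here and gave no adjusted p-value for 18. No cluster was named B cell precursor, so precursors and mature B cells share this class. Whether their mix differed between the libraries was not tested. Of the further genes 6 of 31 S phase and 35 of 47 G2 and M phase genes were lower and 0 higher, among them Kif11 (at least 24.7-fold), Hmmr (at least 19.4-fold) and Kif15 (at least 19.0-fold).

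In neutrophils no member passed among 5 S phase and 14 G2/M members tested, with 1 and 1 at an unadjusted p under 0.05 and 0 by DESeq2, beside 0.495% of 4650 genes called (13 higher and 10 lower; by library size alone 190 and 66). Pcna stood at 61.1, 37.3 and 88.4 CPM (log2 change -1.02, SE 0.41, adjusted p = 0.28, edgeR), Rrm2 at 39.5, 71.7 and 79.8 CPM, Top2a at 158, 324 and 454 CPM (-1.03, SE 0.41, adjusted p = 0.27) and Mki67 at 255, 439 and 337 CPM (-0.09, SE 0.38, adjusted p = 0.94). This result depends on which cells bear the name. With cell cycle genes used in the clustering 8 S phase and 14 G2/M members were lower in the tumours, and with finer clustering 6 and 13. In T and NK cells, 8 of 10 G2/M members tested (Cenpf, Ccnb2, Birc5, Ccnb1, Top2a, Tpx2, Ube2c and Mki67) and Mcm6 of 8 S phase members were lower in the tumours, beside 2.52% of 6119 genes lower and 6.06% called in all, where 2 of the normal library's cells held 85.2% of its thinned G2/M UMIs. In astrocytes Cenpf and Top2a of 8 members tested passed as higher, beside 3.99% of 9789 genes higher, 3.09% lower and 7.08% in all. The glial progenitor markers stood at 426, 396 and 311 CPM in astrocytes of tumour 1, tumour 2 and normal. With doublets kept, 2 of 12 S phase and 11 of 14 G2/M members were higher in astrocytes, and with the stricter cell filter 0 of 6 and 0 of 14 passed by edgeR, with 0 and 10 at an unadjusted p under 0.05. In neurons 0 of 12 passed by edgeR and 0 by DESeq2, with 0 S phase and 1 G2/M member at an unadjusted p under 0.05, beside 4.22% of genes called. With doublets kept, 3 of 9 G2/M members tested were higher in tumour neurons. In choroid plexus cells no member reached the count filter, and 0.0742% of 2696 genes were called.

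Over the whole libraries, 5 of the 30 members passed, beside 13.1% of 20449 genes higher and 8.36% lower (21.5% in all). Cenpf stood at 296, 301 and 97.9 CPM across tumour 1, tumour 2 and normal (log2 change 2.16, SE 0.33, adjusted p = 0.016, edgeR). Tpx2 stood at 98.6, 93.7 and 64.5 CPM (1.13, SE 0.28, adjusted p = 0.044) and Cenpe at 80.3, 97.1 and 52.6 CPM (1.32, SE 0.32, adjusted p = 0.043). Ung (8.71, 10.4 and 3.43 CPM; 2.04, SE 0.50) and Chaf1b (11.2, 10.2 and 3.70 CPM; 2.08, SE 0.46) were the S phase members that passed. For all 5 both tumours lay above normal, but these genes were named because they passed, so this order adds no further support. Mki67 stood at 263, 280 and 252 CPM (0.67, SE 0.31, adjusted p = 0.18), Top2a at 288, 279 and 337 CPM (0.31, SE 0.30, adjusted p = 0.49), Pcna at 86.8, 96.1 and 125 CPM (0.11, SE 0.29, adjusted p = 0.8) and Rrm1 at 64.6, 54.9 and 62.9 CPM (0.48, SE 0.27, adjusted p = 0.26). The log2 changes include a scaling under which all genes have a median of 0.14. By library size alone that median was -0.42 (1686 genes higher and 3798 lower, against 2680 and 1710), the median of the S set turned from 0.45 to -0.11, 1 S phase member was lower and 0 higher, and 1 G2/M member was higher.

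Of the further genes, 5 of 44 S phase genes (among them Rfc3 1.97 and Rfc4 1.35) and 11 of 54 G2 and M phase genes (Ckap2 2.03, Prc1 1.79 and Aspm 1.64) were higher in whole libraries and 0 lower. Over all 20449 genes tested 13.1% were higher and 8.36% lower, so the count of higher S phase genes lay near the share over all genes. Ccnd1, the G1 cyclin, stood at 632, 635 and 36.7 CPM (4.67, SE 0.41, adjusted p = 0.0079, edgeR), with both tumours far above normal, and Ccnd2 (3.11) and Cdk4 (2.49) were higher too.

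Over 39 sums of a class in a library, 10707 genes were ranked by how closely they followed each set. The 5 outside the members closest to the S set were H2afz (Spearman rho 0.913), Usp1 (0.900), Dbf4 (0.877), Hmgb2 (0.874) and Sgo1 (0.868). Closest to the G2/M set were Cdca3 (0.945), Knl1 (0.938), Prc1 (0.933), Cks2 (0.931) and Cdca8 (0.924). The sums share libraries and differ in depth, so these values are descriptions. Pcna, Tyms, Ccnb1 and Ccnb2 have annotated pseudogene copies, and how reads were split between them is not given in the sources used here.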

How the data were processed

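The 3 libraries were made with 10x Genomics 3' chemistry. The authors deposited raw UMI counts for each gene in each barcode. The software was Cell Ranger 6.1.2, per the file headers, and the build mm10, per the submitters' processing notes. The matrices held 12118, 10728 and 4354 barcodes and 151906460, 157114723 and 15035292 UMIs in tumour 1, tumour 2 and normal.

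Barcodes with at least 500 UMIs, 300 genes and at most 15% mitochondrial UMIs were kept, and doublets called per library with Scrublet (expected rate 8%) were removed (375, 238 and 46). Cells were scaled to 10000 counts, and 2000 variable genes, 30 principal components and 15 neighbours fed Leiden clustering at resolution 1.0 (scanpy 1.11.5, igraph 0.11.9). No integration was applied. Clusters were named from marker lists, and a cluster whose markers did not lead stayed unnamed (1882, 1319 and 149 cells). All names are rebuilt from markers and stand for marker-like cells.

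UMI counts were summed per class and library and tested with edgeR 4.0.16 (quasi-likelihood, filterByExpr, TMM, Benjamini-Hochberg threshold 0.05 over all genes tested) where each library had 20 cells. The SE given with a log2 change is its absolute value over the square root of the quasi-likelihood F statistic, since the test itself gives none. Folds against a group at 0 use a floor of 3 counts over the group, and intervals at 95% cover counting error only. CPM are UMIs of a gene for every 1000000 UMIs of the class sum, without TMM. The contrast of cell classes pairs them by library, since both classes come from the same library. The test was tried on simulated data. The alternatives were DESeq2 1.42.0, library size alone, no low-count filter, no library block, leaving out a tumour library and 4 changes to filtering or clustering.

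The members, lists, tests and naming rule were chosen with earlier results of these data known. The text names every member that passed, the most abundant members of each set that did not, and, in the main comparisons, the genes of each further list with the largest change, of which 1 is not reported here. Promoter windows come from RefSeq (GRCm38.p6).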

Additional observations from a re-analysis of the deposited data

Results flagged for a closer look

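A pair of unnamed clusters, used in no comparison of cell classes above but part of the whole-library sums, carried G2/M member transcripts below the level of glioma cells (1881 and 2806 CPM) and at or above that of tumour microglia (833 and 738 CPM). Cluster 9 (661, 285 and 17 cells in tumour 1, tumour 2 and normal; median 1162 UMIs per cell) stood at 836.0 and 1485 CPM for the G2/M members in tumour 1 and tumour 2, and at 21.5 CPM in the normal library. Cluster 14 (304, 116 and 1 cells; median 1419 UMIs) stood at 942.7 and 1012 CPM in the tumours. The glial progenitor list was the best match for both clusters, but their UMI counts were low and none of its markers was among their leading genes, so they kept no name.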

How the results depend on the processing

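Calls of members depended on the tool and the scaling more often than their signs: without tumour 1, without tumour 2 and by library size alone, every called member of the 8 comparisons tested for it kept its sign. These members had been called in the full fit and the alternatives reuse its libraries, so kept signs are little further support. The median of the S set in whole libraries did turn by library size alone, as given above. DESeq2 called 5 G2/M members higher in whole libraries (against 3), 0 S phase and 8 G2/M members in endothelium (6 and 14), 0 and 2 in B cells (5 and 15, with 18 of these 20 p-values not given by the tool), 0 S phase members in macrophages against microglia (7), 9 G2/M members in glioma cells against macrophages (5) and 4 lower S phase members in vessel cells against microglia (7). Library size alone gave, in whole libraries, 0 S phase members higher and 1 lower (2 and 0) and 1 G2/M member higher (3). It gave 6 S phase members higher and 0 lower in glioma cells against microglia (1 and 4), 0 higher and 2 lower S phase and 2 lower G2/M members in macrophages against microglia (7, 0 and 0), 1 higher and 0 lower S phase and 13 higher G2/M members in glioma cells against macrophages (0, 3 and 5) and 3 lower G2/M members in vessel cells (5). With no low-count filter these counts were 3 S phase members higher in glioma cells against microglia, 1 S phase member lower in macrophages against microglia, 10 G2/M members higher in glioma cells against macrophages, and 12 S phase and 15 G2/M members lower in vessel cells. With no replicate block, 0 S phase members were higher in macrophages against microglia and 2 G2/M members lower in vessel cells, and the block changed no other count by over 1.5 times.

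With cell cycle genes among the variable genes, neutrophils had 8 S phase and 14 G2/M members lower, vessel cells 10 G2/M members lower than microglia and glioma cells 2 S phase members higher than microglia. The microglial S share of the tumours was 33.8% (against 35.9%), and marrow-type cells held 90.5% of the normal library's member UMIs. With doublets kept, 8 S phase members were lower in B cells, 2 S phase members higher in glioma cells against microglia and 10 G2/M members higher against macrophages, and the microglial S share was 34.6%. The stricter filter gave 1 S phase member lower in whole libraries, 2 G2/M members higher in macrophages, 1 lower in neutrophils, 8 higher in glioma cells against macrophages, and 1 S phase member higher and 3 G2/M members lower in vessel cells. Its S shares were 17.4% (glioma cells, against 18.1%) and 36.6% (microglia), and its marrow-type share was 93.4%. It left too few B cells for a test. At resolution 2.0, macrophages had 2 S phase members higher and 8 G2/M members lower than normal and 1 G2/M member higher than microglia, and neutrophils 6 and 13 lower. There marrow-type cells held only 45.2% of the normal library's member UMIs, with an S share of 25.1% (against 29.7%). Their share of cells with a G2/M UMI was 18.8% (against 25.3%), and the microglial S share was 35.4%. Without the most abundant member of each set the S shares were 18.8% (glioma cells), 32.0% (microglia) and 26.6% (normal marrow-type cells). The cause was not tested.

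Shares of cells move with depth by construction. The mean share of tumour glioma cells with an S UMI was 28.3%, and 17.5%, 44.3% and 90.9% at 500 UMIs, at 2000 UMIs and without thinning, and 9.32% when 2 UMIs were asked for. For G2/M it was 31.8%, and 24.3%, 40.4%, 79.0% and 20.4%. In tumour microglia the S share of cells was 22.7%, and 12.5%, 35.4%, 63.0% and 5.92%, and the G2/M share 15.5%, and 10.5%, 22.9%, 43.0% and 7.23%. In normal microglia the G2/M share was 4.0%, and 2.33%, 6.13% and 0.348% at 500, at 2000 and with 2 UMIs asked for. In normal marrow-type cells it was 25.3%, and 22.5%, 35.4%, 32.8% and 20.6%. The main limits are the single normal library, its lower depth and the few normal macrophages.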
